A study of Homo sapiens with 6 samples.

Results

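TROAP, TPX2, HMMR, DLGAP5, NUSAP1 and CKAP2, which bind microtubules or act at the spindle, and ANLN, PRC1, ECT2 and RACGAP1, which act in cytokinesis, are 10 of the 50868 genes whose expression was measured by RNA-Seq in HCT116, an established human line of colorectal cancer. The genes were chosen by their function and with the difference between pcYY2 and pcCon in these data already known. Their changes between these groups therefore describe the genes and test nothing. The cells had been transfected with pcCon, the control vector pcDNA3.1(+), or with pcYY2, a plasmid that overexpresses the transcription factor YY2, with 3 samples for each plasmid. All 6 samples came from this cell line, and the methods give a harvest time for overexpression experiments in general but none for the RNA-Seq samples themselves. All 10 genes passed the filter on low values, a mean FPKM of at least 1, as did 12015 genes in all.

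The mitotic spindle is built from microtubules that are nucleated around chromosomes, bundled and attached to kinetochores by non-motor proteins of the kind listed here. After chromosome segregation, antiparallel microtubules form the central spindle, which directs a ring of actin and myosin to cleave the cell. The transcripts of many of these genes are known to be periodic, with a peak in G2 and M phase. A short promoter motif, the cell cycle homology region, is known from such genes and is often found near the start site, with CCAAT boxes upstream.

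RefSeq promoters (GRCh38, 250 bases before to 50 bases after a start site) were found for 7 of the 10 genes, namely HMMR, DLGAP5, NUSAP1, CKAP2, ANLN, PRC1 and ECT2. The cell cycle homology region, searched as TTTGAA on both strands, was in 6 of these 7, all but CKAP2. It was in 15.2% of all 35116 promoters and in the promoters of 18.2% of 27305 genes. The windows of 30 bases around the copy nearest to the start site are given 5′ to 3′ on the strand of the gene. Each window was placed around its copy, so the windows do not show how alike the copies are placed. Each copy of the motif on either strand is in capitals.
HMMR: gggagaTTTGAATTTGAAaccggtagggag
ANLN: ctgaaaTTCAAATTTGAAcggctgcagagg
PRC1: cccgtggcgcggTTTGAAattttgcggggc
DLGAP5: cggtgcggcaagTTTGAAtttcgtggaggc
NUSAP1: tggcgccagggaTTTGAAccgcgctgacga
ECT2: agagcagcttagttTTTGAAtcggttgtgg
The window of HMMR is chr5:163460598-163460627, that of ANLN chr7:36389830-36389859, that of PRC1 chr15:90994538-90994567 on the minus strand, that of DLGAP5 chr14:55191565-55191594 on the minus strand, that of NUSAP1 chr15:41332882-41332911 and that of ECT2 chr3:172750746-172750775. In HMMR and ANLN, 2 copies stood end to end, in the same direction in HMMR and as an inverted pair in ANLN. The copy shown began 22 bases before the start site in HMMR and 20 bases before it in both ANLN and PRC1. In DLGAP5, NUSAP1 and ECT2 it began after the start site, at +4, +14 and +35. Further copies in the same promoters began at -138 and -109 in DLGAP5 and at -115 in ECT2.

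The related form TTCGAA was in none of these 7 genes, in 1.45% of all promoters and in the promoters of 1.82% of all genes. CCAAT, on either strand, was in 5 of the 7 (PRC1, ECT2, HMMR, DLGAP5 and NUSAP1). It was in 34.6% of all promoters and in the promoters of 39.7% of all genes. Its copy in PRC1 began 53 bases before the start site. Copies began at -87 and -22 in DLGAP5, at -97, -58 and -2 in ECT2 and at -249, -105 and -64 in NUSAP1. In HMMR they began at -177, -144, -95, -69 and -66. CCATNTT, a core of the motif that YY1 and YY2 bind, was in DLGAP5 and NUSAP1. It was in 15.6% of all promoters and in the promoters of 18.6% of all genes. In DLGAP5 its last base is the first of a TTTGAA copy. Among the genes of G2 and M phase used below, 14 of 26 with a promoter held TTTGAA, as did 1 of 20 genes of S phase. CCAAT was in 21 of those 26 and in 13 of those 20. These matches describe the letters in the windows and show no binding.

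YY2 had between 4.81 and 6.97 CPM (read counts per 1000000 reads of the library, scaled by TMM, a factor that corrects for library composition) in pcCon and between 30.8 and 32.4 CPM in pcYY2. Between 15158360 and 29572882 reads were counted per sample, the most in pcYY2 sample 2. Of 9 markers of colon epithelium, 6 had a mean FPKM of at least 1, while VIL1, CDX1 and LGALS4 were at 0.08 or less in every sample. The summed FPKM of these markers was 302 to 314 in pcCon and 393 to 429 in pcYY2. The difference came mostly from KRT8, at 61.6 to 64.9 in pcCon and 86.0 to 113.1 in pcYY2, and KRT19, at 105.8 to 109.9 and 151.7 to 166.1. EPCAM had 68.9 to 72.2 and 73.7 to 76.8, and the groups overlapped in CDH1, KRT18 and CDX2. Of 13 markers of other cell types, COL1A1 and HBB reached a mean of 1, and their sum ranged from 9.23 to 38.7 in pcCon and from 8.80 to 59.1 in pcYY2. HBB, a globin, stood at 89.4 CPM in pcCon sample 1 and 140 CPM in pcYY2 sample 2, against 11.5 to 20.3 CPM in the other 4 samples. The part of these libraries in the results was not tested beyond leaving them out.

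Of the 10 genes, 5 rose in pcYY2 in edgeR's quasi-likelihood test over all 12015 genes (adjusted p of 0.05 or less), 0 fell and 5 did not pass. Of all tested genes, 4.52% were called higher and 4.85% lower. At an unadjusted p under 0.05, 7 of the 10 were higher and 0 lower, against 14.4% and 14.5% of all tested genes. Since the genes were chosen with this comparison known, nothing is read from the count. The genes that rose were TROAP, TPX2, DLGAP5, PRC1 and RACGAP1. In 7 genes the 3 pcYY2 values lay above the 3 pcCon values, which held for 17.5% of all tested genes. The median log2 fold change of the 10 genes was 0.30, against 0.002 over all tested genes. At a stricter adjusted p of 0.01, TROAP alone passed, and 0.757% of all tested genes were called higher.

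**Figure D1:**
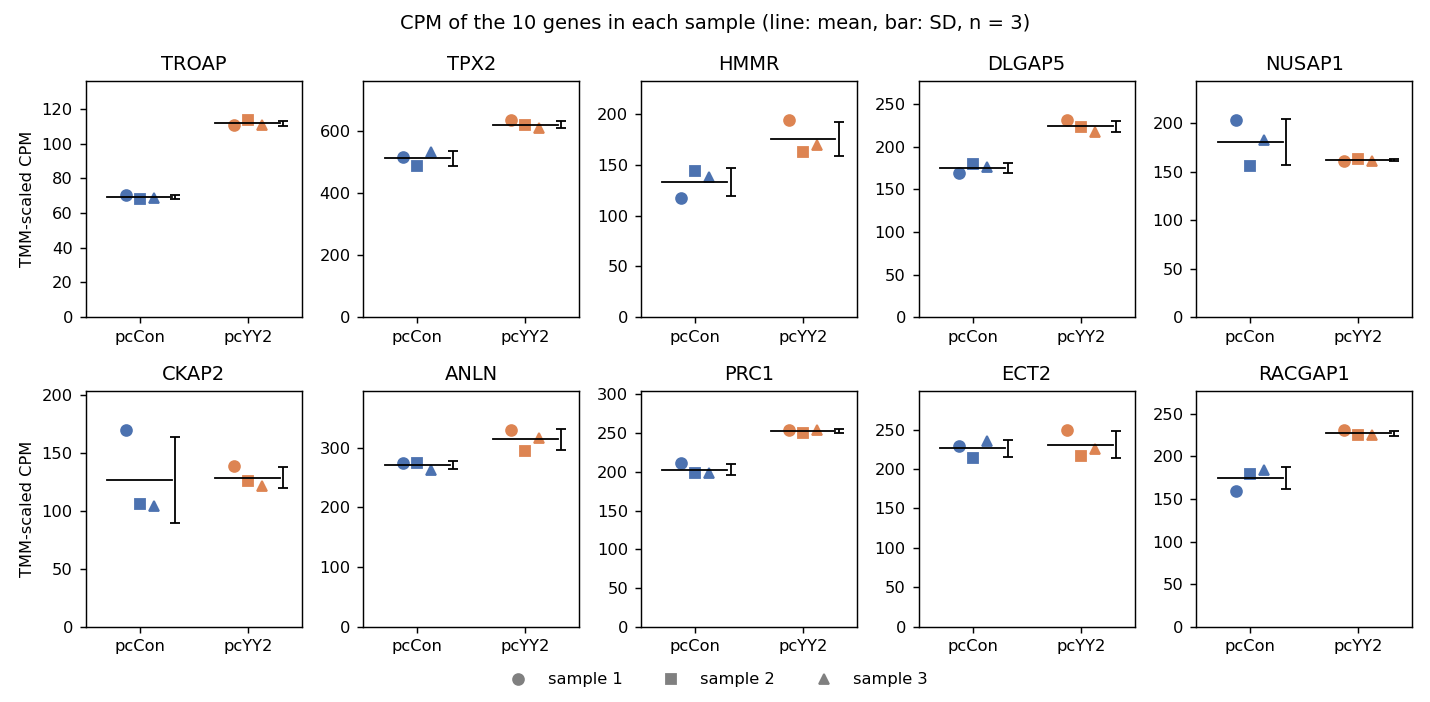
TMM-scaled CPM (y axis, from 0) of each gene in the 3 pcCon and 3 pcYY2 samples (x axis, marker shape gives the sample number), with the mean as a line and the SD as a bar. TROAP shows the clearest separation, from 68.1 to 70.4 CPM in pcCon to at least 110.9 CPM in pcYY2, while CKAP2 has a single high pcCon value of 169.6 CPM.

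TROAP (ENSG00000135451), also called tastin, is a trophinin-associated protein that is found on spindle microtubules and centrosomes. It lies on the plus strand of GRCh38 chromosome 12 from 49323236 to 49331731. Its level was 70.4, 68.1 and 68.9 CPM in pcCon samples 1 to 3 and 110.9, 113.5 and 111.1 CPM in pcYY2 samples 1 to 3. The groups lay far apart and each was tight, with coefficients of variation of 1.68% in pcCon and 1.33% in pcYY2. TROAP had 1032 to 3274 reads per sample, and these coefficients were not set against counting error. From 3 samples a group, they are not read as a trait of TROAP. The log2 fold change was 0.69 (standard error, SE, 0.0459), a 1.62-fold higher level. TROAP ranked 13 by p among all tested genes. It was the one gene of the 10 that passed the threshold in all 15 alternative analyses, in which its log2 fold change was between 0.61 and 0.72.

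TRO (trophinin), the protein after which TROAP is named, had 0 reads in each of the 6 samples, where 3 reads, taken as the floor, correspond to 0.101 to 0.198 CPM. BYSL (bystin), which binds trophinin and tastin, had 43.3 CPM in pcCon and 42.0 CPM in pcYY2 (log2 fold change -0.04, SE 0.129, adjusted p = 0.855 by edgeR).

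TPX2 (ENSG00000088325, chromosome 20 from 31739271 to 31801805) activates Aurora A kinase and promotes microtubule nucleation near chromosomes. It had 516, 486 and 532 CPM in the pcCon samples and 633, 617 and 609 CPM in the pcYY2 samples. The groups did not overlap, and the log2 fold change was 0.28 (SE 0.0440). It passed in 9 of 14 alternatives, and its call was lost without pcCon sample 1, pcCon sample 2 or pcYY2 sample 3 (adjusted p = 0.0589, 0.0571 and 0.0512 by edgeR). TPX2 was the most abundant of the 10 genes. Its kinase AURKA rose as well, by a log2 difference of 0.42 (SE 0.0549, adjusted p = 0.00935 by edgeR), and so did KPNA2, the importin that holds TPX2 inactive (0.40, SE 0.0405, adjusted p = 0.00479).

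DLGAP5 (ENSG00000126787, chromosome 14 from 55148112 to 55191608), or HURP, stabilizes the fibres that connect kinetochores with the spindle pole. It had 169, 180 and 176 CPM in pcCon and 231, 223 and 217 CPM in pcYY2, with a log2 difference of 0.35 (SE 0.0481). After TROAP, it passed the threshold in the most alternatives together with PRC1, 12 each. HMMR (ENSG00000072571, chromosome 5 from 163460203 to 163491941) binds hyaluronan and, inside the cell, microtubules at the spindle pole. Its values were 118, 144 and 138 CPM in pcCon and 194, 162 and 170 CPM in pcYY2. The groups did not overlap, but the coefficients of variation were 10.3% and 9.34%, and with a log2 difference of 0.40 (SE 0.0973) HMMR stood just outside the threshold (adjusted p = 0.0502 by edgeR). The lowest HMMR value of each group came from the library with much HBB, as did the lowest RACGAP1 value. HMMR passed in 3 of its 15 alternatives, DESeq2 among them.

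NUSAP1 (ENSG00000137804, chromosome 15 from 41320794 to 41381050) bundles microtubules around chromosomes. It was the one gene of the 10 with a fold change below 0 on the log2 scale. It had 203, 156 and 183 CPM in pcCon and 161, 164 and 162 CPM in pcYY2. The 3 pcYY2 values lay within the range of the pcCon values, and the log2 fold change was -0.15 (SE 0.0926). The SD was 23.5 CPM in pcCon and 1.27 CPM in pcYY2. In GENCODE 44, the long noncoding RNA OIP5-AS1 shares 195 exonic bases with NUSAP1 on the same strand. The locus that the deposited table gives for NUSAP1 begins later, at 41332694. Whether that locus holds the shared bases was not examined. In pcCon sample 2, where NUSAP1 was lowest, OIP5-AS1 had 33.4 CPM, against 115 to 149 CPM in the other 5 samples. When the reads of OIP5-AS1 and of OIP5, on the other strand, were added to those of NUSAP1, the sum stood at 0.07 (SE 0.193). OIP5-AS1 alone stood at 0.37 (SE 0.481), so the sum carries its spread and does not describe NUSAP1 alone.

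CKAP2 (ENSG00000136108, chromosome 13 from 52455429 to 52476628) binds and stabilizes spindle microtubules. It had 169.6 CPM in pcCon sample 1 but 106 and 104 CPM in the other pcCon samples, and 138, 126 and 122 CPM in pcYY2. The log2 fold change over all samples was 0.02 (SE 0.189). Without pcCon sample 1, the pcYY2 values lay above both remaining pcCon values, and the log2 fold change was 0.289 (SE 0.0745, adjusted p = 0.0953 by edgeR), which did not pass. Without pcCon sample 2, pcCon sample 3 or pcYY2 sample 1 the value was below 0, at -0.0897, -0.103 and -0.0309. Its size and sign thus changed with the libraries used.

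**Figure D2:**
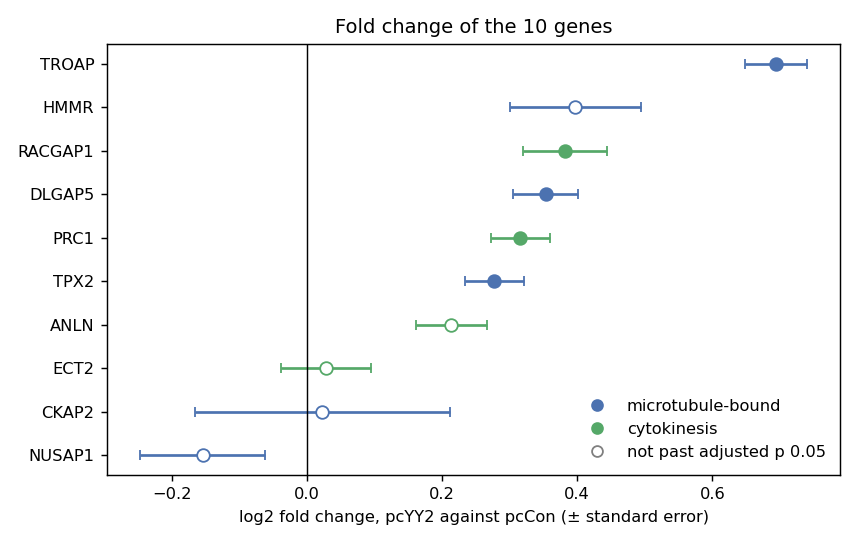
Log2 fold change of pcYY2 against pcCon (x axis) with its standard error for each gene (y axis), in blue for genes that bind microtubules and in green for cytokinesis genes; filled points passed an adjusted p of 0.05. TROAP lies at 0.69, from TPX2 to HMMR 5 genes lie between 0.28 and 0.40, and NUSAP1 alone lies below 0.

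Of the cytokinesis genes, PRC1 and RACGAP1 rose. PRC1 (ENSG00000198901, chromosome 15 from 90966040 to 90995629) crosslinks antiparallel microtubules in the central spindle. It had 211, 199 and 199 CPM in pcCon and 254, 250 and 254 CPM in pcYY2, a tight pair of groups with a log2 difference of 0.32 (SE 0.0437). Without pcCon sample 2 it did not pass (adjusted p = 0.0555). KIF4A, the kinesin that works with PRC1, rose by 0.23 (SE 0.0504, adjusted p = 0.0364 by edgeR). RACGAP1 (ENSG00000161800, chromosome 12 from 49976923 to 50033136) forms the centralspindlin complex with KIF23. It had 160, 179 and 184 CPM in pcCon and 231, 225 and 226 CPM in pcYY2, with a log2 difference of 0.38 (SE 0.0618). RACGAP1 passed in 11 of 15 alternatives, and its call was lost without pcCon sample 2 or pcYY2 sample 3 (adjusted p = 0.0571 and 0.0541 by edgeR). Its partner KIF23 had 167 CPM in pcCon and 207 CPM in pcYY2 and did not pass (log2 fold change 0.31, SE 0.0900, adjusted p = 0.0708).

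ECT2 (ENSG00000114346, chromosome 3 from 172750682 to 172821474), the exchange factor that centralspindlin recruits to activate RHOA, had 229, 214 and 236 CPM in pcCon and 249, 216 and 226 CPM in pcYY2. The groups overlapped, and the log2 fold change was 0.03 (SE 0.0672). RHOA, its target, had a log2 difference of 0.04 (SE 0.0427, adjusted p = 0.628 by edgeR). ANLN (ENSG00000011426, chromosome 7 from 36389821 to 36453791), or anillin, links actin, myosin and septins in the contractile ring. It had 275, 275 and 263 CPM in pcCon and 330, 295 and 317 CPM in pcYY2. The groups did not overlap, and ANLN stood just outside the threshold at 0.21 on the log2 scale (SE 0.0522, adjusted p = 0.0501 by edgeR). PRC1 and RACGAP1 thus stood 1.24-fold and 1.30-fold higher, ANLN 1.16-fold and ECT2 1.02-fold.

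Other genes also have exons that overlap those of the 10. TROAP shares 193 bases with TROAP-AS1, which had 1 to 8 reads per sample. PRC1 shares 1892 bases with PRC1-AS1, which had 0 to 8 reads, RACGAP1 shares 137 bases with AQP6, which had at most 8, and HMMR shares 113 bases with HMMR-AS1, which had 0. ANLN shares 78 bases with MATCAP2 on the other strand, which had 245 to 414 reads and lay under the filter. In GENCODE 44, PRC1 also shares 3181 exonic bases with ENSG00000284946 and NUSAP1 shares 2938 with ENSG00000285920, protein-coding genes on the same strand that were not analysed here. Adding the reads of the other overlapping genes changed no call of TROAP, HMMR, ANLN, PRC1 or RACGAP1. For ANLN, the log2 fold change with the added reads was 0.19.

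FPKM was not used to compare the genes, as the gene length behind it was 1.28 to 2.34 times the exons of GENCODE 44 for 9 of the 10 genes and equal to them for TPX2. As reads per kilobase of these exons and per 1000000 reads of the library, TPX2 had a level of 140 ± 6.32 (SD, n = 3) in pcCon, at the 98.3rd percentile of tested genes. NUSAP1 followed at 49.5 ± 6.44, DLGAP5 at 48.2 ± 1.59, ANLN at 44.7 ± 1.17, ECT2 at 40.7 ± 1.97 and RACGAP1 at 38.5 ± 2.82. PRC1 stood at 36.4 ± 1.28, HMMR at 33.5 ± 3.44, CKAP2 at 27.5 ± 8.14 and TROAP at 17.3 ± 0.291, the 77.5th percentile. In this order, the pcCon values of TPX2 and NUSAP1, of DLGAP5 and ANLN, of ANLN and ECT2, and of CKAP2 and TROAP did not overlap. Those of NUSAP1 and DLGAP5 did, and from ECT2 down to CKAP2 each gene overlapped the next. In pcYY2, TROAP reached 27.7 ± 0.242 and lay within the range of CKAP2, 26.24 to 29.95.

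**Figure D3:**
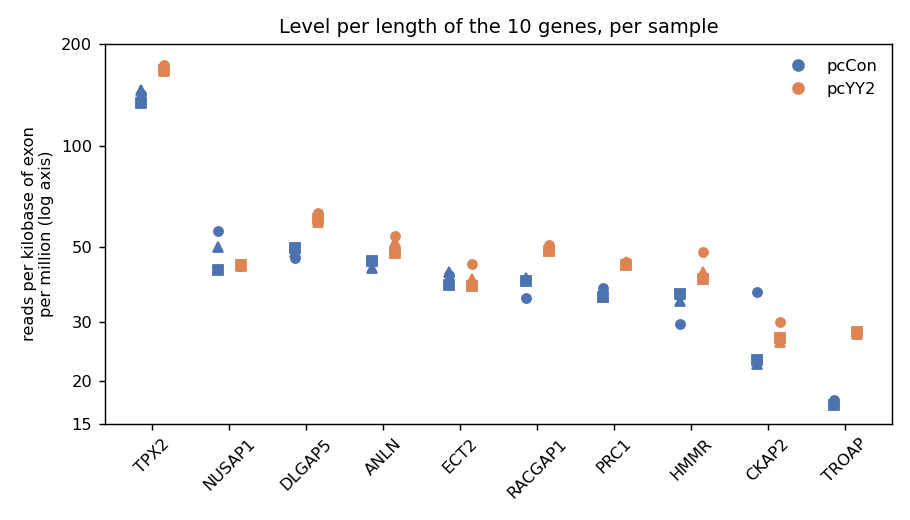
Reads per kilobase of exon and per 1000000 reads of the library (y axis, log scale) for each gene in order of its pcCon mean (x axis), with 1 point per sample, pcCon in blue and pcYY2 in orange. TPX2 lies above 130 and every other point at or below 63.1, and TROAP in pcYY2 moves up to the level of CKAP2.

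The spread within the groups, which the choice of the genes did not use, was compared between the 10 genes. After the group means were subtracted from log2 CPM, the 45 pairs had a median Pearson correlation of 0.181 over 6 samples, 26 of them above 0, with a range from -0.914 (PRC1 with RACGAP1) to 0.954 (CKAP2 with PRC1). The median between a member and any other tested gene was -0.0083. These points share library and depth, and no p is given. In the pairs with the lowest and the highest correlation, each gene deviated most in pcCon sample 1. Counting error was not separated from these deviations, so the 6 samples cannot show whether the 10 genes move together. The deviations within groups spanned 0.709 on the log2 scale in CKAP2, 0.379 in NUSAP1 and 0.320 in HMMR, but 0.0476 in TROAP, the smallest of the 10. In pcCon sample 1, HMMR, DLGAP5 and RACGAP1 had their lowest pcCon value, while TROAP, NUSAP1, CKAP2, ANLN and PRC1 had their highest. The 5 other tested genes whose deviations were most like the mean of the 10 were REEP5 (0.998), GPX1P1 (0.994), C5orf51 (0.989), SEPT7 (0.987) and UQCC1 (0.985). Of these, REEP5 rose between the groups by a log2 difference of 0.37 (SE 0.0677, adjusted p = 0.0245 by edgeR), and the others did not pass. They are the best of a search over all other tested genes with 6 samples, so correlations this high show no link to the 10. CKAP2, with the widest span, also weighs heavily in that mean.

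**Figure D4:**
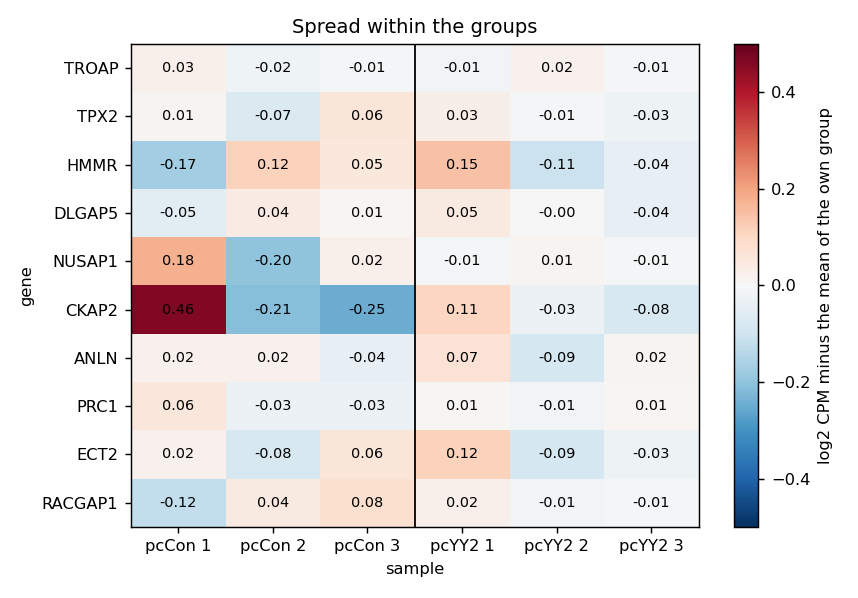
Difference of log2 CPM from the mean of the own group (colour and printed value) for each gene (y axis) and sample (x axis). CKAP2 in pcCon sample 1 stands at 0.46, and TROAP varies by 0.0476 in all.

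Other genes of the same processes were examined with lists written from general knowledge, but with earlier results of these data known. The counts below therefore describe the lists and test nothing. The lists share 10 genes among them, KPNA2, CIT and TACC3 included, so their counts are not of separate genes. Of 16 tested direct partners of the 10 genes, 10 rose and 0 fell, against 4.52% and 4.85% of all tested genes. At an unadjusted p under 0.05, 13 were higher and 0 lower, against 14.4% and 14.5%. The median log2 fold change was 0.35. Besides AURKA, KPNA2 and KIF4A, the partners that rose were AURKB and CDCA8 of the chromosomal passenger complex and the mitotic kinase PLK1. So did the kinesins KIF11, KIF15 and KIF20A, and CIT, the citron kinase of the midbody. CDCA8 rose most clearly, from 110 ± 2.62 to 156 ± 5.41 CPM (SD, n = 3), a log2 difference of 0.51 (SE 0.0501, adjusted p = 0.00428). PLK1 rose by 0.49 (SE 0.0545, adjusted p = 0.00587). INCENP and BIRC5, further members of the passenger complex, did not pass (adjusted p = 0.0723 and 0.232).

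Of 45 tested spindle microtubule factors, 7 rose and 1 fell, against 4.52% and 4.85% of all tested genes. The median log2 fold change of this list was 0.12. GTSE1, a microtubule plus end protein, rose from 102 ± 2.67 to 148 ± 2.07 CPM (log2 fold change 0.54, SE 0.0467, adjusted p = 0.00274), and SPAG5, or astrin, by 0.41 (SE 0.0474, adjusted p = 0.0066). PSRC1, PCNT, TACC3, CKAP5 and KPNA2 also rose, and TUBGCP4, a subunit of the γ-tubulin ring complex, fell by 0.24 on the log2 scale (SE 0.0488, adjusted p = 0.0297). Of 40 cytokinesis factors, 7 rose and 2 fell, against the same shares of all tested genes, with a median of 0.07. MYL9, a myosin light chain, rose from 24.9 ± 0.490 to 41.4 ± 1.64 CPM (log2 fold change 0.74, SE 0.0652, adjusted p = 0.00296). CEP55, the midbody scaffold, rose by 0.35 (SE 0.0467, adjusted p = 0.00974) and SHCBP1, which binds centralspindlin, by 0.39 (SE 0.0530, adjusted p = 0.00998). CIT, ARHGAP11A, KIF14 and ZFYVE26 rose too. The actomyosin genes ROCK2 and MYL12A fell, by 0.43 and 0.32 on the log2 scale (adjusted p = 0.0148 and 0.0136).

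Most transcripts in the list of G2 and M phase rose as well. Of 32 such genes, which leave out the 10 and share 6 genes with the list of partners, 22 rose and 0 fell. Of all tested genes, 4.52% rose and 4.85% fell. At an unadjusted p under 0.05, 26 were higher and 0 lower, against 14.4% and 14.5% of all tested genes. All 32 had a log2 fold change above 0, and the median was 0.33. CDCA3 rose most, from 47.7 ± 2.23 to 80.8 ± 3.56 CPM (log2 fold change 0.76, SE 0.0613, adjusted p = 0.00209). CCNF, or cyclin F, rose by 0.47 (SE 0.0446, adjusted p = 0.0039). The proliferation markers MKI67 and TOP2A rose by 0.23 and 0.27 (adjusted p = 0.0228 and 0.0154), while CDK1 did not pass (0.42, SE 0.106, adjusted p = 0.0528). In bulk RNA, a larger share of cells in G2 or M phase and more of these transcripts per cell cannot be told apart, and their part in the values of the 10 genes was not tested.

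Transcripts of S phase went both ways. Of 25 genes, 4 rose and 3 fell, against 4.52% and 4.85% of all tested genes. Their median log2 fold change was 0.02. The ribonucleotide reductase subunits RRM2 and RRM1 rose by 0.39 (SE 0.0490, adjusted p = 0.00834) and 0.28 (SE 0.0390, adjusted p = 0.0116), as did the replicative helicase subunit MCM7 (0.29, SE 0.0414, adjusted p = 0.0127) and the flap endonuclease FEN1. Those that fell were the cyclins CCNE1 (by 0.40 on the log2 scale, adjusted p = 0.0133) and CCNE2 (by 0.45, adjusted p = 0.0414) and the ubiquitin ligase adaptor DTL (by 0.32, adjusted p = 0.0215).

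Of 23 tested regulators of G2 and M phase genes, 0 were called in edgeR's test, where 4.52% of all tested genes rose and 4.85% fell. At an unadjusted p under 0.05 there were 5 higher and 1 lower, where 14.4% and 14.5% of all tested genes stood. DESeq2 called 0 as well, and limma called 1, E2F1. E2F1 had 43.3 ± 2.03 CPM in pcCon and 37.0 ± 0.918 CPM in pcYY2 (log2 fold change -0.23, SE 0.0643, adjusted p = 0.0703 by edgeR). CDKN1A, the cell cycle inhibitor p21, had a log2 difference of 0.24 (SE 0.0679, adjusted p = 0.0712) and E2F8 of 0.15 (SE 0.0504, adjusted p = 0.0986). YY1 had 168 ± 12.3 CPM in pcCon and 189 ± 18.6 CPM in pcYY2 (log2 fold change 0.17, SE 0.0886, adjusted p = 0.26).

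FOXM1, a transcription factor known to act on the promoters of G2 and M phase genes, was singled out after its values were seen. It had 161, 160 and 166 CPM in the pcCon samples and 203 and 209 CPM in pcYY2 samples 1 and 2, but 92.1 CPM in pcYY2 sample 3. In the same sample TROAP had 111.1 CPM, and the largest deviation of any of the 10 genes from its group mean was that of CKAP2, -0.0787 on the log2 scale. The log2 fold change of FOXM1 was 0.05 (SE 0.281, adjusted p = 0.924 by edgeR). Over all alternatives it ranged from -0.147 to 0.347, and without pcYY2 sample 3 it stood at 0.35 (SE 0.0519, adjusted p = 0.0346). The low value comes from a single library, and any part of FOXM1 in the values of the 10 genes was not tested.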

How the data were processed

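RNA-Seq of HCT116 cells transfected with pcCon or pcYY2 was analysed, with 3 samples each. Low-quality, adapter and rRNA reads had been removed by the authors, who aligned the remainder to GRCh38 using TopHat and name Cufflinks for FPKM. The submitters' processing notes also list Bowtie2 and HTSeq. The deposited table holds raw read counts per gene, and the FPKM deposited beside them were scaled by the authors to a fixed gene length and the total count. The strand setting of the counting is not given in the sources used here, so reads of overlapping genes on opposite strands may not be separated.

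Counts were tested with edgeR 4.0.16 (quasi-likelihood test, TMM, R 4.3.3) over genes whose FPKM averaged 1 or more, and p-values were adjusted by the Benjamini-Hochberg method over all tested genes. DESeq2 1.42.0 and limma 3.58.1 (with trend, on log2(FPKM + 1) and log2(FPKM + 0.1)) were alternatives. The standard error was taken as the ratio of the fitted change to √F. Total counts ranged from 15158360 to 29572882, and the lowest count of any of the 10 genes in a sample was 1032 reads. Whether the samples of a group were separate cultures is not stated, and p-values measure the spread between these samples. All tests were tried on simulated data first. The 10 genes and all lists were chosen with earlier results of these data known. Named are the 10 genes, YY1, YY2, at most 3 genes with the smallest p in each list, genes that overlap one of the 10, and the 5 genes most alike within groups. Further genes named to complete a count of calls or as partners, and MKI67, TOP2A, CDK1 and FOXM1, were added after their values were seen. Protein sequences were not analysed here. Python 3.11.15 was used for sequences and plots.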

Additional observations from a re-analysis of the deposited data

How the results depend on the processing

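The median log2 fold change of the 10 genes was between 0.271 and 0.318 in all 14 alternatives, and no alternative called any of the 10 lower. TPX2, HMMR, DLGAP5, ANLN, PRC1 and RACGAP1 kept their direction throughout, as did TROAP. Upper quartile scaling, DESeq2, lower filters and limma left the counts of calls within 1.5 times, except that limma called 1 regulator with either pseudocount. An adjusted p of 0.01 left 1 of the 10 genes, 5 spindle factors, 3 cytokinesis factors, 4 partners, 7 genes of G2 and M phase and 1 of S phase. Leaving out single samples gave 2 (without pcCon sample 2) to 6 called members, 3 without pcYY2 sample 3, and 5 to 7 spindle factors, 4 to 9 cytokinesis factors, 4 to 10 partners, 7 to 21 genes of G2 and M phase, 2 to 7 of S phase and 0 to 1 regulators. In these fits CKAP2 was between -0.103 and 0.289 and ECT2 between -0.0299 and 0.0704. The sum of NUSAP1 and its overlapping genes, which include the variable OIP5-AS1, stood at 0.067. Leaving out the samples with the most HBB, pcCon 1 and pcYY2 2, together was chosen after seeing the data. It left 1 called member (TROAP), 1 spindle factor, 0 cytokinesis factors, 0 partners, 2 genes of G2 and M phase and 0 of S phase, with a median of 0.316 for the 10 genes, from 2 samples a group. Over all genes, 29 were then higher and 54 lower, against 543 and 583 with all samples, 138 to 413 and 147 to 394 without single samples, and 91 and 100 at an adjusted p of 0.01.

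No pairing of the samples is stated. Deviations of same-numbered samples correlated at -0.0262, -0.0413 and -0.0259, which cannot exclude a shared batch. With the replicate block, 1 of the 10 genes (TROAP), 2 spindle factors, 1 cytokinesis factor, 3 partners, 5 genes of G2 and M phase and 0 of S phase were called, and 51 genes were higher and 50 lower over all.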
